A study of Homo sapiens with 3 samples.

Results

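The 10 genes *IGF1R*, *ROCK2*, *RAP1B*, *NOTCH1*, *MET*, *CXCR4*, *HOXA9*, *HOXA10*, *TPD52* and *HRAS* are described here as a set of genes listed as published targets of *miR-139-5p*. The listing was not checked against the literature. The rule that picks the genes uses their names and no value of these arrays, but it was chosen with earlier results of these data known. Their probes were found through the RefSeq accession that the array gives for each probe, which named 17 probes for the 10 genes, out of 58201 probes and 22439 gene symbols matched in all. RNA came from A549 cells, a line established from a human lung adenocarcinoma. The cells received transfection reagent only (mock), *miR-139-5p* or *miR-139-3p*, each precursor at 10 nM as the methods state for all miRNA precursors, and every group was treated with the same reagent, RNAiMAX. Each condition was read on 1 Agilent array of 1 colour, and the time between transfection and RNA extraction for the arrays was not given in the sources used here. Mock cells received no small RNA. The *miR-139-3p* array, the other strand of the same hairpin, was therefore set beside *miR-139-5p* as a transfected control. This strand is not an inert control, since the paper reports that it suppressed proliferation of A549 cells. With 1 array per condition no test was made, and no difference below has a replicate check.

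A miRNA guides the silencing complex to messenger RNAs, mostly through pairing of its seed, the bases near its 5′ end, with sites in the 3′UTR, and target mRNAs are then often destabilised. An array can see that loss of mRNA, but it cannot see a block of translation alone. The reported targets are parts of growth and motility signalling: receptors at the cell surface, small GTPases and a kinase below them, and transcription factors in the nucleus. *IGF1R* and *MET* are receptors of growth factors that signal through RAS proteins.

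The mature sequences are shown because they set which transcripts each strand can pair with. They are from RefSeq (GRCh38.p14) and are written 5′ to 3′ with the seed, bases 2 to 8, in capitals. Both lie on the minus strand of chromosome 11, *miR-139-5p* at chr11:72615102-72615124 and *miR-139-3p* at chr11:72615066-72615088.
miR-139-5p: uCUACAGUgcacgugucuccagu
miR-139-3p: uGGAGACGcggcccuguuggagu
The seeds are the same base at 2 of their 7 positions. A perfect match to the *miR-139-5p* seed reads ACTGTAG in DNA letters, and that of *miR-139-3p* reads CGTCTCC. Among 2370 mature miRNAs in the RefSeq table, 0 others share the seed of *miR-139-5p* and 0 others that of *miR-139-3p*. The strands pair with each other in the hairpin, and their longest run of perfect complementarity covers 7 bases, bases 15 to 21 of *miR-139-5p* and bases 1 to 7 of *miR-139-3p*. The 3′UTRs of the 10 genes were not analysed here, so no site in them is given.

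Signals below are scaled signals: the background-subtracted intensity divided by the 75th percentile of the array, which was 93.6 in mock, 88.9 with *miR-139-5p* and 81.0 after *miR-139-3p*. The error after ± is the error that Feature Extraction estimated for the spot, or, for the probes of *HRAS* and *CXCR4* with 10 spots each, the standard error over the spots used. It covers the reading of the array and holds no spread between cultures. Slide 1 held the arrays of mock and *miR-139-5p*, and slide 2 that of *miR-139-3p*, so slide and transfection cannot be told apart for *miR-139-3p*. Between 48.1% and 53.1% of spots were well above background. All 9 epithelial and A549 markers were well above background on the 3 arrays, whereas 3 of 4 alveolar type II markers, *NKX2-1*, *SFTPA1* and *SFTPB*, were so on none. Of 8 markers of blood, endothelial and stromal cells, 5 were well above background on all arrays and *COL1A2* and *PECAM1* on none, at a summed scaled signal of 1.87 to 4.95 against 1574 to 2325 for the epithelial list. Past 0.5 on the log2 scale from mock, the epithelial list had 4 lower and 0 higher genes with *miR-139-5p*, and 4 lower and 1 higher with *miR-139-3p*, so that 44.4% of the 9 were lower in each comparison, beside 12.3% and 27.9% of all genes. The other cell types had 0 lower and 1 higher of 5 with a value, then 2 and 3 of 6. Higher genes thus made up 20% and then 50% of these few markers, where the shares for all genes were 10.7% and 26.5%. *SFTPC* was lower with each strand, and the part of these markers in the results was not tested. As these are bulk RNA samples, fewer cells with a transcript and less transcript per cell cannot be told apart.

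Of the 17 probes of the reported targets, 15 were well above background on all 3 arrays, and all 10 genes had a value in both comparisons. A gene value is the mean log2 fold change over those probes that passed the background flag on both arrays, and a difference over 0.5 on the log2 scale is counted as past the threshold. After *miR-139-5p* transfection, 1 of the 10 reported targets, *TPD52*, was lower than mock past the threshold, and over all 15018 genes with a value 12.3% were. In the other direction, 2 of the 10, *MET* and *CXCR4*, were higher, beside 10.7% of all genes. The share of lower members, 1 of 10, is thus near that of all genes. The median log2 fold change of the 10 genes was -0.08, and that of all genes was -0.01. With the brightest probe of each gene the median of the 10 was 0.21, so it has no settled direction. The values nearest the threshold were *MET* and *CXCR4*, both at 0.52, just outside 0.5, and *NOTCH1* at -0.40, within it. Neither *MET* nor *CXCR4* passed it without scaling or with normexp background correction, which left 0 of the 10 above it. On the *miR-139-3p* array, 1 of the 10, *MET*, was lower, beside 27.9% of all genes, and 3 of the 10, *HOXA10*, *ROCK2* and *HOXA9*, were higher, beside 26.5%. The median of the 10 was 0.04 with *miR-139-3p*, and that of all genes -0.05. Both comparisons share the mock array. The scaling sets how many genes fall on each side: with E1A spike-in scaling, 7.90% of all genes were lower and 16.6% higher for *miR-139-5p*, and 39.0% and 18.8% for *miR-139-3p*.

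**Figure D1:**
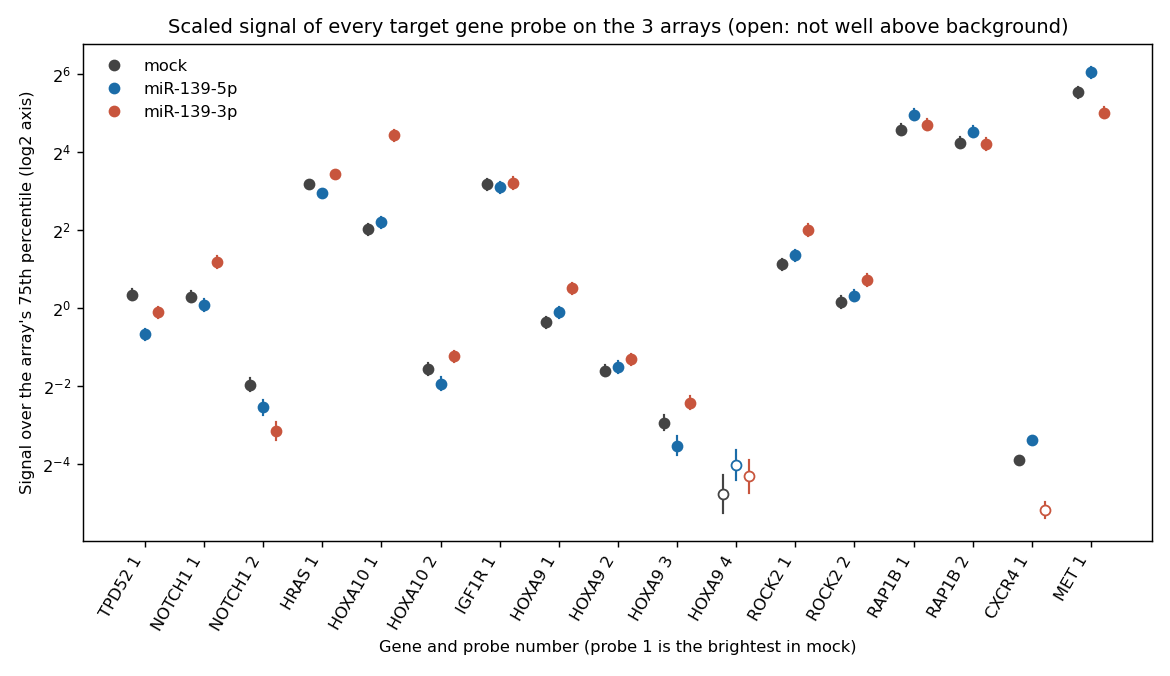
Scaled signal (signal over the 75th percentile of the array, log2 axis) of each of the 17 probes of the reported targets, with 1 point per array and bars for the error of the reading. The *TPD52* probe is lowest on the *miR-139-5p* array, the bright *HOXA10* probe is highest on the *miR-139-3p* array, and open points were not well above background.

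*TPD52*, or tumor protein D52, is a coiled-coil protein of vesicle trafficking that is overexpressed in several carcinomas. Its 1 probe read 1.27 ± 0.127 in mock, 0.628 ± 0.0639 with *miR-139-5p* and 0.931 ± 0.0938 after *miR-139-3p*. The signal was lowest with *miR-139-5p*, intermediate with *miR-139-3p* and highest in mock, and the intervals of the readings did not overlap. Against mock, the difference was -1.01 ± 0.21 on the log2 scale with *miR-139-5p*, or 49.6% of mock, whereas *miR-139-3p* gave -0.45 ± 0.21, or 73.5%. Among all genes with a value for *miR-139-5p*, 342, or 2.28%, lay lower than *TPD52*. Only 1 probe was matched to the gene through a RefSeq accession, with 1 spot on each array, so no second probe was set beside it. Probes without a matched accession were not used, and they could also read these genes.

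The receptors showed no common direction with *miR-139-5p*. *IGF1R*, the tyrosine kinase receptor for the insulin-like growth factors, read 9.06 ± 0.906 in mock, 8.54 ± 0.855 with *miR-139-5p* and 9.26 ± 0.926 after *miR-139-3p*. These 3 readings overlapped within their errors, and *IGF1R* lay at a log2 fold change of -0.09 ± 0.20 after *miR-139-5p* and 0.03 ± 0.20 after *miR-139-3p*. *MET*, the receptor of hepatocyte growth factor, read 46.3 ± 4.63 in mock, 66.3 ± 6.63 with *miR-139-5p* and 32.4 ± 3.24 after *miR-139-3p*. *MET* was thus highest with *miR-139-5p* and lowest with *miR-139-3p*. The log2 fold changes were 0.52 ± 0.20 and -0.52 ± 0.20, both just past the threshold and on opposite sides of mock. With *miR-139-3p*, *MET* was past the threshold in 9 of 12 alternative settings of the processing, which lay between -0.75 and -0.35.

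*NOTCH1*, a receptor whose intracellular part enters the nucleus after ligand binding, was read by 2 probes. The bright probe read 1.22 ± 0.123 in mock, 1.06 ± 0.107 with *miR-139-5p* and 2.27 ± 0.227 after *miR-139-3p*. The dim probe read 0.258 ± 0.0285 in mock, 0.172 ± 0.0233 with *miR-139-5p* and 0.113 ± 0.0182 after *miR-139-3p*. With *miR-139-5p* both probes were below mock, at -0.22 ± 0.21 and -0.59 ± 0.25 on the log2 scale, and of these the dim one passed the threshold. With *miR-139-3p* they went opposite ways, at 0.89 ± 0.20 and -1.19 ± 0.28, so the gene value of -0.15 is a mean of values that disagree and gives no direction for *NOTCH1*.

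*CXCR4*, the chemokine receptor for *CXCL12*, was read near background by a probe with 10 spots. It read 0.0669 ± 0.00436 in mock, 0.0957 ± 0.00477 with *miR-139-5p* and 0.0278 ± 0.00411 after *miR-139-3p*. The probe was well above background in 8 of 10 spots in mock, in 9 of the 9 used with *miR-139-5p* and in 0 of 10 with *miR-139-3p*. On the log2 scale, *miR-139-5p* differed from mock by 0.52 ± 0.12. With *miR-139-3p* the value is a bound: *CXCR4* was at least 1.25-fold lower than in mock, counted against the lowest scaled signal among probes well above background on that array, 0.0533.

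Among the GTPases and the kinase, *HRAS* was the only gene with a probe of 10 spots. Its error, the standard error over spots, is not the measure given for the others. *HRAS*, a GTPase switch between receptors and the MAPK cascade, read 9.10 ± 0.0667 in mock, 7.77 ± 0.0623 with *miR-139-5p* and 10.8 ± 0.133 after *miR-139-3p* over 10 spots each. The arrays did not overlap in this reading error, and the log2 fold change was -0.23 ± 0.02 with *miR-139-5p*, 85.4% of mock, and 0.25 ± 0.02 with *miR-139-3p*, 119% of mock. Both were under the threshold of 0.5, and other settings, scaling included, moved the value for *miR-139-3p* between 0.01 and 0.46, a range far wider than the reading error.

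*RAP1B*, a GTPase that acts on integrin adhesion, was read by 2 bright probes. The brighter read 23.9 ± 2.39 in mock, 31.1 ± 3.11 with *miR-139-5p* and 26.0 ± 2.60 after *miR-139-3p*. The other read 19.0 ± 1.90 in mock, 23.0 ± 2.30 with *miR-139-5p* and 18.5 ± 1.85 after *miR-139-3p*. Both probes were highest with *miR-139-5p*, and the gene value was 0.33 (SD between probes 0.08, n = 2 probes) with *miR-139-5p* and 0.04 (SD 0.11) after *miR-139-3p*, so that a reported target was above mock on the *miR-139-5p* array by less than the threshold.

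*ROCK2*, a kinase that drives contraction of the actomyosin cytoskeleton, was also read by 2 probes. The brighter read 2.18 ± 0.218 in mock, 2.57 ± 0.257 with *miR-139-5p* and 4.02 ± 0.402 after *miR-139-3p*. The dimmer read 1.12 ± 0.112 in mock, 1.25 ± 0.126 with *miR-139-5p* and 1.65 ± 0.166 after *miR-139-3p*. Mock was lowest and *miR-139-3p* highest for both probes, and the gene value was 0.20 (SD 0.05) with *miR-139-5p* and 0.72 (SD 0.23) after *miR-139-3p*.

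*HOXA9* and *HOXA10* are neighbouring homeobox genes of the HOXA cluster that set position along the body axis and are kept on in some leukaemias and carcinomas. *HOXA9* had 4 probes, of which 1 was not well above background on any array. The brightest read 0.776 ± 0.0784 in mock, 0.929 ± 0.0939 with *miR-139-5p* and 1.43 ± 0.143 after *miR-139-3p*. The 3 probes above background gave 0.26, 0.08 and -0.58 on the log2 scale with *miR-139-5p*, and their mean of -0.08 is small beside the SD of 0.45 between them. With *miR-139-3p* the same probes gave 0.88, 0.28 and 0.51, all above mock, with a mean of 0.56 (SD 0.30). This gene value was past the threshold in 6 of 12 alternative settings of the processing, which lay between 0.28 and 0.88.

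For *HOXA10*, the bright probe read 4.06 ± 0.406 in mock, 4.59 ± 0.459 with *miR-139-5p* and 21.5 ± 2.15 after *miR-139-3p*. The dim probe read 0.340 ± 0.0356 in mock, 0.262 ± 0.0291 with *miR-139-5p* and 0.425 ± 0.0440 after *miR-139-3p*. With *miR-139-5p* the probes lay on opposite sides of mock, at 0.18 ± 0.20 and -0.37 ± 0.22 on the log2 scale. With *miR-139-3p* both lay above mock but by very unequal amounts, 2.41 ± 0.20 and 0.32 ± 0.21, so the gene value of 1.37 rests on the bright probe and was 0.32 for the dim probe alone.

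**Figure D2:**
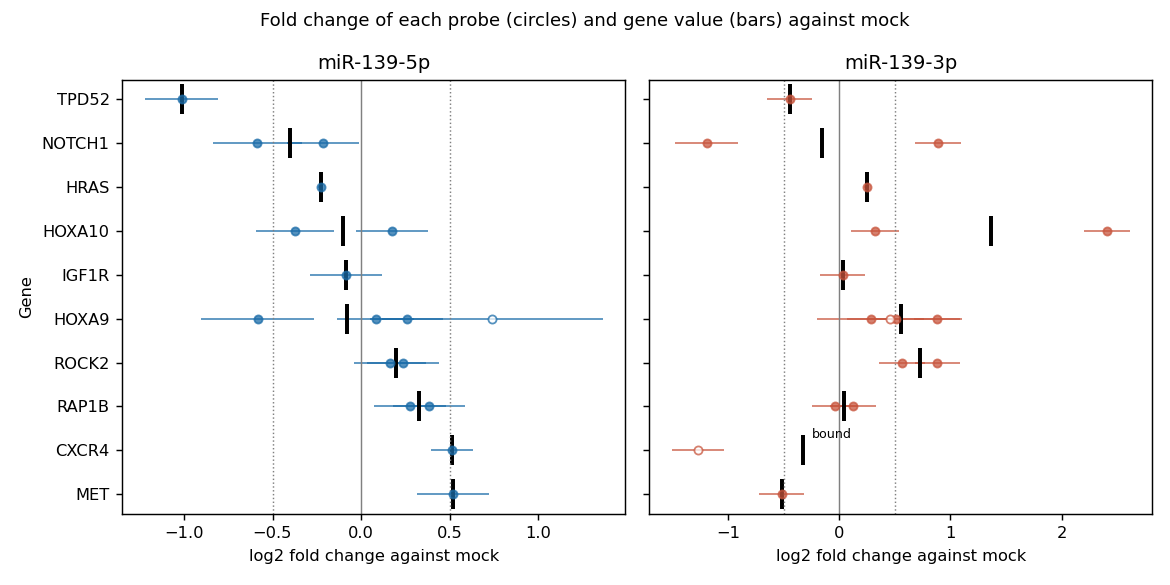
Log2 fold change against mock of each probe (circles with the error of the reading, open where not well above background on both arrays) and of each gene (black bars), with dotted lines at -0.5 and 0.5. With *miR-139-5p* the only gene value below -0.5 is that of *TPD52*, and with *miR-139-3p* the probes of *NOTCH1* and of *HOXA10* lie far apart.

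**Figure D3:**
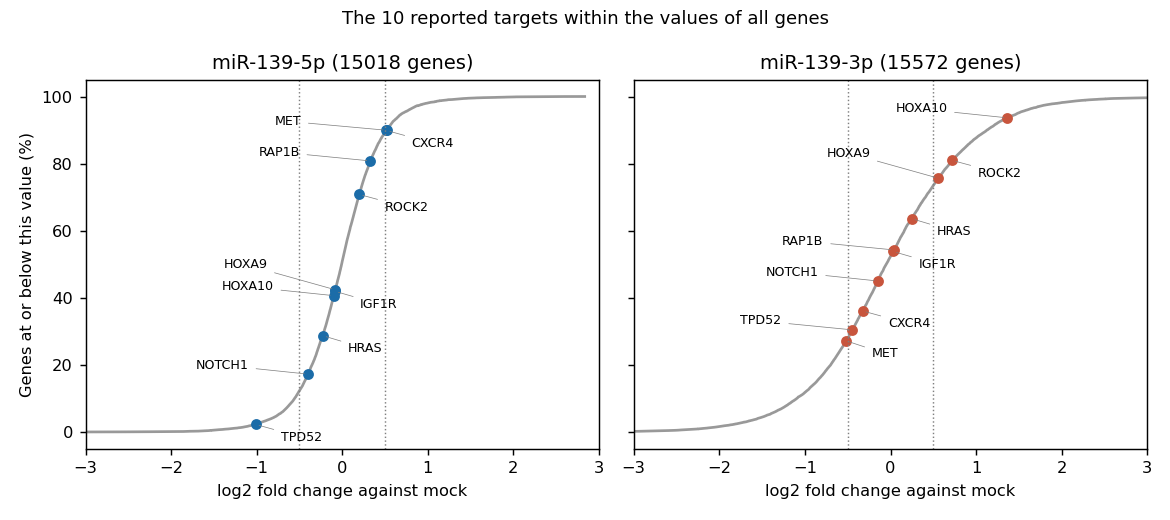
Cumulative share of all genes (vertical axis, percent) by log2 fold change against mock, with the 10 reported targets placed on the curve. With *miR-139-5p*, *TPD52* lies low on the curve, where 2.28% of genes are lower, and the other 9 lie between 17.3% and 89.9%; the curve is wider for *miR-139-3p*.

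Relatives of each reported target were read in the same way, as genes of similar function. Of 26 paralogs, 18 had a value with *miR-139-5p*, of which 4 were lower and 3 higher than mock past the threshold, with a median of -0.02. With *miR-139-3p*, 20 had a value, 6 lower and 5 higher, with a median of 0.16. These shares stand beside the 12.3% and 10.7% of all genes with *miR-139-5p* and the 27.9% and 26.5% with *miR-139-3p*.

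The paralog with the lowest value with *miR-139-5p* was *MST1R*, the receptor of macrophage-stimulating protein and the closest relative of *MET*. It read 2.01 in mock, 0.808 with *miR-139-5p* and 1.57 after *miR-139-3p*, at log2 fold changes of -1.32 and -0.36. *MST1R* was thus lower than mock on the *miR-139-5p* array, where *MET* was higher. *ACKR3*, the other receptor of *CXCL12*, was at -0.74 with *miR-139-5p* and -1.45 after *miR-139-3p*, and *HOXB9* at -0.71 and 0.70. *TPD52L1*, a partner of *TPD52*, was lower than mock on both arrays, at -0.64 after *miR-139-5p* and -1.06 after *miR-139-3p* over 2 probes, whereas *TPD52L2* was at -0.39 and 0.35.

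The 3 paralogs higher than mock past the threshold with *miR-139-5p* were GTPases. *NRAS* was at 0.85, *RAP1A* at 0.74 and *RRAS2*, over 2 probes, at 0.64 with *miR-139-5p*, and at 0.24, -0.53 and 0.15 with *miR-139-3p*. *NRAS* read 2.28 in mock, 4.12 with *miR-139-5p* and 2.70 after *miR-139-3p*. *RRAS* was at 0.21 and 0.53.

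Values of other relatives follow. *ROCK1*, which shares most functions with *ROCK2*, was at -0.37 with *miR-139-5p* and 0.37 after *miR-139-3p*. *INSR*, the insulin receptor, was at 0.43 and 0.74. Of the NOTCH receptors, *NOTCH2* had 2 probes on opposite sides of mock with *miR-139-5p*, at 0.45 and -0.24, so that its mean of 0.11 gives no direction, and 1 probe gave -0.66 after *miR-139-3p*. *NOTCH3* read 24.3 in mock, 18.4 with *miR-139-5p* and 3.98 after *miR-139-3p*, at -0.40 and -2.61, the lowest paralog value in the *miR-139-3p* comparison. *MRAS* was at 0.89 with *miR-139-3p* and had no value with *miR-139-5p*, where its spot was left out as an outlier.

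The pathways around the reported targets were followed with 7 lists of ligands, adaptors, effectors and regulators. Over the 106 genes of these lists with a value, 9 were lower and 8 higher than mock past the threshold with *miR-139-5p*. That is 8.49% and 7.55%, beside 12.3% and 10.7% of all genes, and the median was -0.03. With *miR-139-3p*, 43 of 108 genes were lower, or 39.8%, and 14 higher, or 13.0%, with a median of -0.32. Beside all genes, at 27.9% lower and 26.5% higher, the lists lay toward lower values on the *miR-139-3p* array, which was also the array on the other slide. The single lists hold few genes, so that 1 gene moves a share by several percent, and genes are named from them by a fixed rule and not because a list stood apart.

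**Figure D4:**
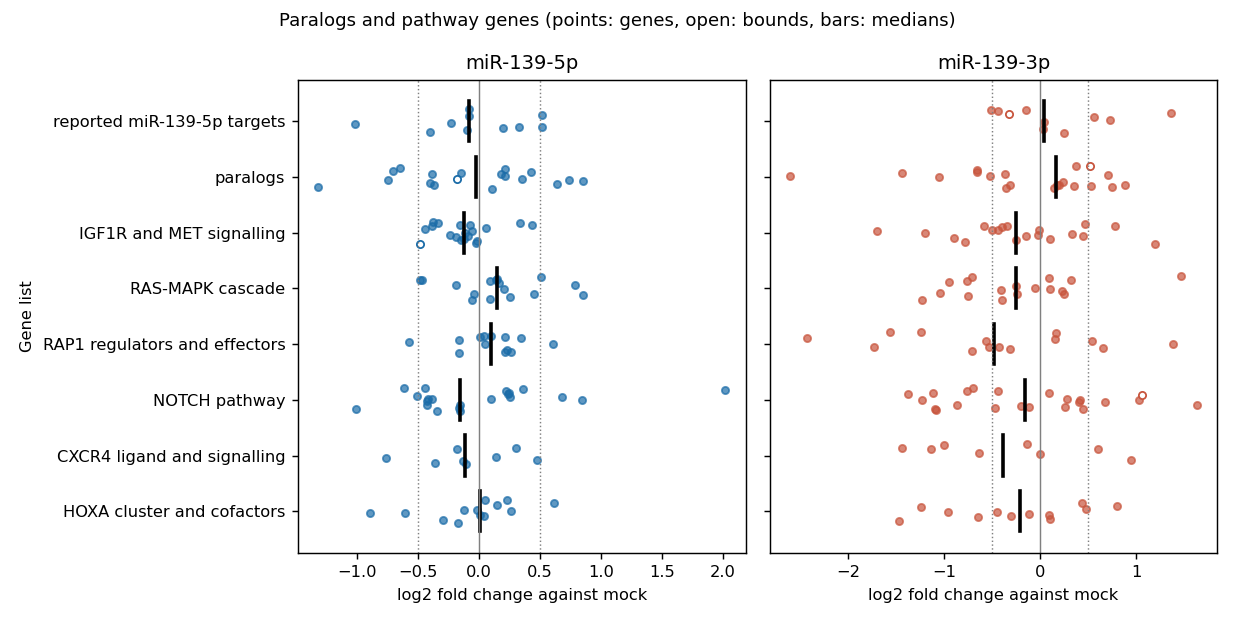
Log2 fold change against mock of each gene (points, open for bounds) in the reported targets, their paralogs and the pathway lists described here, with the median of each list as a black bar and dotted lines at -0.5 and 0.5. With *miR-139-5p* the list medians lie between -0.16 and 0.14, and with *miR-139-3p* between -0.48 and 0.16.

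In the *IGF1R* and *MET* list of ligands, proteases and adaptors, 0 of 19 genes were past the threshold in either direction with *miR-139-5p*. Over all genes, 12.3% were lower and 10.7% higher in that comparison. The median of the list was -0.13. With *miR-139-3p*, 6 of 19, or 31.6%, were lower, near the 27.9% of all genes, and 2 were higher, or 10.5% beside 26.5%. *GRB2*, the adaptor between receptors and the RAS exchange factors, was at -1.70, *IRS1*, a docking protein of *IGF1R*, at -1.20 over 2 probes and *AKT1*, a survival kinase, at -0.89. *ST14*, a protease that activates hepatocyte growth factor, was at 1.19 and *HGFAC*, another such protease, at 0.78. The ligands *IGF1* and *HGF* and the adaptor *GAB1* had no value.

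In the RAS-MAPK cascade, 0 of 16 genes were lower and 3 were higher with *miR-139-5p*, beside 12.3% and 10.7% of all genes. These 3 were *DUSP6*, *SPRY2* and *SPRED1*. *DUSP6*, an ERK phosphatase, read 2.77 in mock, 5.02 with *miR-139-5p* and 7.68 after *miR-139-3p*, at 0.86 and 1.47 on the log2 scale. *SPRY2* was at 0.79 and 0.24, and *SPRED1* at 0.51 and -0.25. With *miR-139-3p*, 6 of 17 genes were lower and 1 was higher, *DUSP6*, beside 27.9% and 26.5% of all genes. Among the lower genes, the kinase *MAPK3* was at -1.23 and the scaffold *KSR1* at -1.04.

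Of the regulators and effectors of RAP1, 1 of 13 was lower and 1 higher with *miR-139-5p*: *RAP1GAP*, which switches RAP1 off, at -0.58 over 2 probes and *RAPGEF2*, which switches it on, at 0.61 over 2 probes. Each is 7.69% of the list, below the 12.3% and 10.7% of all genes. With *miR-139-3p*, 7 of 14 were lower and 3, or 21.4%, higher, beside 27.9% and 26.5% of all genes. *RASSF5*, a RAP1 effector, was at -2.44 from 1 probe. That probe read 0.0684 with *miR-139-3p*, near the lowest signal well above background. *RAP1GAP* was at -1.73 from its dimmer probe only, as the spot of the brighter was left out as an outlier. *RAP1GDS1* was at -1.56 over 2 probes, with an SD of 0.53 between them. *RAPGEF3*, an exchange factor that responds to cyclic AMP, was at 1.38, *KRIT1* at 0.65 and *AFDN*, an adherens junction protein, at 0.54 over 5 probes.

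In the NOTCH pathway, 3 of 21 genes were lower after *miR-139-5p* and 3 were higher, with a median of -0.16. Each is 14.3% of the list, near the 12.3% and 10.7% of all genes. *RBPJ*, the DNA-binding partner of the NOTCH intracellular domain, had 2 probes, of which the brighter read 4.60 in mock, 2.49 with *miR-139-5p* and 4.22 after *miR-139-3p*. The other read 2.45 in mock, 1.12 with *miR-139-5p* and 1.40 after *miR-139-3p*. Both *RBPJ* probes were lowest with *miR-139-5p*, and the gene value was -1.01 (SD between probes 0.18) with *miR-139-5p* and -0.47 after *miR-139-3p*. *APH1A*, a subunit of the γ-secretase that cuts NOTCH, was at -0.61 over 2 probes and *RFNG*, a glycosyltransferase of NOTCH, at -0.51.

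The NOTCH pathway genes above mock with *miR-139-5p* were *HEY1*, *JAG1* and *HES1*. *HEY1*, a repressor whose gene is a direct NOTCH target, read 0.152 in mock, 0.615 with *miR-139-5p* and 0.0891 after *miR-139-3p*. It was thus highest with *miR-139-5p*, at 2.02, and below mock with *miR-139-3p*, at -0.77. *JAG1*, a NOTCH ligand, read 2.86 in mock, 5.12 with *miR-139-5p* and 1.34 after *miR-139-3p*, at 0.84 and -1.09. *HES1*, another NOTCH target gene, was at 0.68 with *miR-139-5p* and 1.63 after *miR-139-3p*. With *miR-139-3p*, 8 of 22 genes, or 36.4%, were lower and 4, or 18.2%, higher, beside 27.9% and 26.5% of all genes. The feedback inhibitor *NRARP* was at -1.38, the ligand *DLL3* at -1.24 and *APH1A* at -1.12, whereas the ligand *JAG2* was at 1.03 and the glycosyltransferase *MFNG* at 0.67. The 3 *JAG2* probes disagreed, with an SD of 1.11.

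Around *CXCR4*, 1 of 8 genes, or 12.5%, was lower with *miR-139-5p*, near the 12.3% of all genes, and 0 were higher, beside 10.7%. *ARRB1*, an arrestin that ends receptor signalling, was at -0.76 with *miR-139-5p* and -1.44 after *miR-139-3p*. With *miR-139-3p*, 4 of 8 were lower, beside 27.9% of all genes, including *ARRB2*, the other arrestin, at -1.14 and the receptor kinase *GRK6* at -1.01 over 2 probes. The ligand *CXCL12* was at 0.94 with *miR-139-3p* from 1 dim probe of its 4, and the G protein subunit *GNAI3* at 0.60.

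Among the other HOXA genes and cofactors of HOX proteins such as the MEIS genes, 2 of 13, or 15.4%, were lower after *miR-139-5p* and 1, or 7.69%, was higher, near the 12.3% and 10.7% of all genes. *HOXA7*, the next gene of the cluster beyond *HOXA9*, read 2.73 in mock, 1.47 with *miR-139-5p* and 4.73 after *miR-139-3p*. It was thus lowest with *miR-139-5p*, at -0.89, and highest with *miR-139-3p*, at 0.80. *MEIS2* was at -0.60 with *miR-139-5p* and -0.96 after *miR-139-3p*, and *MEIS1* at 0.62 with *miR-139-5p*. With *miR-139-3p*, 4 of 12, or 33.3%, were lower and 1, *HOXA7*, higher, or 8.33%, beside 27.9% and 26.5% of all genes. *HOXA2* was at -1.24.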

How the data were processed

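Gene expression in A549 cells was measured on 3 Agilent arrays of 1 colour, labelled with Cy3. Per the file headers, spot intensities were read with Feature Extraction 12.1.1.1, and the authors left them background-subtracted and without normalization between arrays, beside an error, raw and background intensities and quality flags. A second deposited table holds log2 values for each probe, made by a method that is not stated. Set against the scanner values above background, these were the quantile-normalized log2 signals, with a median absolute difference of 0.0045 to 0.0089, on the log2 scale, and a column median of 2.21 on each array; they were not centred and were used as an alternative.

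Here, log2 of the processed signal minus log2 of each array's 75th percentile over spots other than controls was taken, outlier spots (614, 935 and 1526 for mock, the 5p and the 3p strand) were left out, and spots of a probe were averaged. Of the spots of the 10 genes, 1 was left out, of *CXCR4* with *miR-139-5p*. A probe was well above background where at least 50% of its spots were. A gene without a probe above background on both arrays got a bound, taken from the brightest of its probes above background on 1. Of 58201 probes, 31104 were named through the RefSeq annotation of GRCh38.p14, with versions removed. The array was designed on hg19, so no coordinates of genes are given. Probes of 1 gene had a median SD of 0.15 for *miR-139-5p* and 0.28 for the other strand. Over 7 spike-in probes the SD of the log2 difference from mock was 0.03 and 0.13.

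The members, the paralog and pathway lists and the rules were chosen with earlier results of these data known. From each list, the 3 lowest and 3 highest values past the threshold in each comparison are named, with some paralogs of the members, and a few of these genes and 1 list are not reported here. The lists were compiled from general knowledge and checked against no source. For 2 list genes no probe was matched. Both comparisons share the mock array. In total 13 alternatives were tried, 1 of them added after the data were seen. The scripts were tested on simulated data. Python 3.11.15, numpy 2.4.6, pandas 2.3.3, matplotlib 3.10.9, R 4.3.3 and limma 3.58.1 (normexp) were used.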

Additional observations from a re-analysis of the deposited data

How the results depend on the processing

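No paired analysis was possible because each condition had 1 array and no test was made. Counts and medians of the members are given below where they moved by over 1.5 times or by over the typical SD between probes (0.15 or 0.28), and single genes as ranges.

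*TPD52* stayed lower than mock past the threshold with *miR-139-5p* under all 12 settings run for it, between -1.09 and -0.61. Its value of -1.01 under the settings of the report also passed a threshold of 1, but only just. Some of the other settings gave values short of that threshold. The number of lower members with *miR-139-5p* was 1 in every setting except the lowest probe of a gene, chosen after seeing the data, where it was 3, with *NOTCH1* and *HOXA9*, since that choice lowers values by construction. The number of higher members, 2, became 0 without scaling, with a 75th percentile taken over detected probes, with normexp and at a threshold of 1, and 1 with only probes detected on all arrays, where *CXCR4* has no value, and with outlier spots kept; *MET* ranged from 0.36 to 0.64 and *CXCR4* from 0.11 to 0.64. The median of the members was 0.21 with the brightest probe, beside -0.08.

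With *miR-139-3p*, the number of lower members, 1, became 3 without scaling and 3 with E1A spike-in scaling, 2 without a filter on dim probes and 2 with the lowest probe, and 0 at a threshold of 1 and with a 75th percentile taken over detected probes. The number of higher members, 3, became 1 with spike-in scaling, with the lowest probe and at a threshold of 1. Scaling moves every value of a comparison by the same amount: the median of all genes moved by 0.13 for *miR-139-5p* under spike-in scaling, and in the other comparison by -0.23, by -0.21 when unscaled and by 0.17 for the percentile over detected probes. Unscaled, all genes split, lower and higher, at 15.8% and 8.09% for *miR-139-5p* and at 37.8% and 19.6% in the other comparison, where the percentile over detected probes gave 21.2% and 32.9%. Without a filter on dim probes the medians moved by 0.12 and 0.13. *HOXA10* lay from 0.32 to 2.41 and *NOTCH1* from -1.19 to 0.89 over the settings with *miR-139-3p*. With *miR-139-5p*, *HOXA9* lay from -0.58 to 0.26, *HOXA10* from -0.37 to 0.18 and *NOTCH1* from -0.59 to -0.12, and with *miR-139-3p* *CXCR4* from -1.27 to -0.16. With normexp, whose offset of 50 pulls values toward 0 by construction, 4.23% of all genes were lower and 3.47% higher for *miR-139-5p*, and 19.0% and 10.1% in the other comparison. No value past the threshold under the settings of the report changed sign under another. Signal over background limits *CXCR4* and the dimmest *HOXA9* probe.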
